A study of Homo sapiens with 101 samples.

Results

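The genes studied here carry out homologous recombination and the Fanconi anaemia pathway of crosslink repair, and their transcripts were followed in HT1080 cells, a human fibrosarcoma line (ATCC CCL121), given 1 of 11 compounds. Of 37 genes listed by name, 33 had a probe set and 4 were not analysed here. One of the 33, XRCC3, stayed dim in every group, with a highest group mean of 3.16 on the log2 scale, and was not tested. The other 32 were tested among 11496 genes of the 19774 on the array, each by whichever of its probe sets was brightest on average. All levels are deposited log2 probe set values, so that a difference of 1 is a factor of 2.

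Each compound was given at 1 dose, which the study set by an increase in total p53 of 1.5-fold, in 0.1% vehicle. The labels give no exposure time. Mitomycin C (MMC, 0.1 µM, 5 samples), neocarzinostatin (NCS, 10 ng/ml, 6 samples), hydrogen peroxide (H2O2, 100 µM, 5 samples), ethylnitrosourea (ENU, 2 mM, 6 samples), GAD (2 mM, 6 samples) and tert-butylhydroquinone (tBHQ, 200 µM, 6 samples) were compared with the 6 samples of DMSO_pooled. That link was inferred, since the labels name no other control for these compounds, and they do not say what was pooled. These 6 comparisons share their control samples. Methyl methanesulfonate (MMS, 200 µM, 6 samples) was compared with the 6 samples of MMS_CTL. Quercetin (QUE, 30 µM), curcumin (CUR, 10 µM), BRO (600 µM) and etoposide (ETP, 0.3 µM), with 6 samples each, had separate groups of 6 DMSO samples. GAD and BRO are label codes and are kept as such. Nothing in the labels says that replicates came from separate cultures, so the p-values measure only the spread between these samples, which may be technical.

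Homologous recombination repairs a broken chromosome by copying the sister strand. Nucleases trim the break ends, mediators load a recombinase on the single strand, helpers drive the strand into its partner, and helicases and nucleases take the joint apart. The Fanconi pathway recognises a strand crosslink, marks it through a ubiquitin ligase complex, and hands the resulting break to recombination. Both are used mainly in S and G2 phase, and many of their genes are known to be transcribed with the cell cycle.

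Markers of connective tissue were high and those of other tissues low. VIM ran from 12.71 to 13.34 over all arrays and FN1, SPARC, CD44 and TIMP1 were at 9.87 or more, whereas the epithelial markers EPCAM, CDH1, CLDN7 and ESRP1, PTPRC and CD3E of blood and CDH5 of endothelium were at 3.59 or less. S100A4 was between 4.07 and 6.31, and PECAM1 between 2.62 and 4.45. Array medians lay between 2.88 in the BRO set and 3.54 in the ETP set, so levels are compared only within a set. The libraries labelled QUE replicate 2 and ETP replicate 2 went against their labels. Over the 11496 genes, the change of the library labelled ETP replicate 2 from its control mean correlated with that of the other ETP samples at r = 0.191 and with that of QUE without replicate 2 at r = 0.918. The library labelled QUE replicate 2 correlated at r = 0.0872 with the other QUE samples and at r = 0.658 with ETP without replicate 2, and its closest compound was NCS, at r = 0.819. The remaining 5 ETP samples had r of 0.568 to 0.89 with each other and at most 0.155 with QUE, and the remaining 5 QUE samples had r of 0.789 to 0.943 with each other and at most 0.216 with ETP. Whether the labels were exchanged was not tested, no sample was moved, and the ETP and QUE counts of called genes, and the changes of the genes given in every group, are reported with and without these libraries. Agreement with the own group was also low for MMC replicate 1 (r = -0.00527), H2O2 replicate 1 (r = 0.115), CUR replicate 5 (r = 0.135) and NCS replicate 1 (r = 0.162). With all libraries as labelled, every MMC and every H2O2 library was closer to another compound than to its own group. So were NCS replicates 1 and 2, CUR replicate 5 and ETP replicates 1, 3 and 4. For example, H2O2 replicate 6 had r = 0.522 with its own group and 0.739 with NCS. The own-group mean left out the library itself, while the means of other compounds lost none. MMC, NCS, H2O2, ENU, GAD and tBHQ changes were all taken from the same DMSO_pooled mean, whose error enters correlations within and between these compounds. Leaving out any single library kept the counts of called genes at 0 in MMC and CUR and at 1 in H2O2, and the NCS counts are given with the NCS results.

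A gene was called changed where limma's moderated test gave a Benjamini-Hochberg adjusted p under 0.05 over 11496 genes and the change was at least 1.5-fold (0.58 on the log2 scale). Of 352 tests of 32 genes in 11 compounds, 23 were called higher and 18 lower. Some 17 genes were called higher in at least 1 compound, 11 lower, and 9 in none. Per compound, the share of all tested genes called higher ran from 0.165% in MMC to 11.1% in GAD. The share called lower ran from 0% in MMC to 15% in GAD. How many of all tested genes were called in no compound was not counted. The heat map of changes shows the calls of the 32 genes by role.

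**Figure D1:**
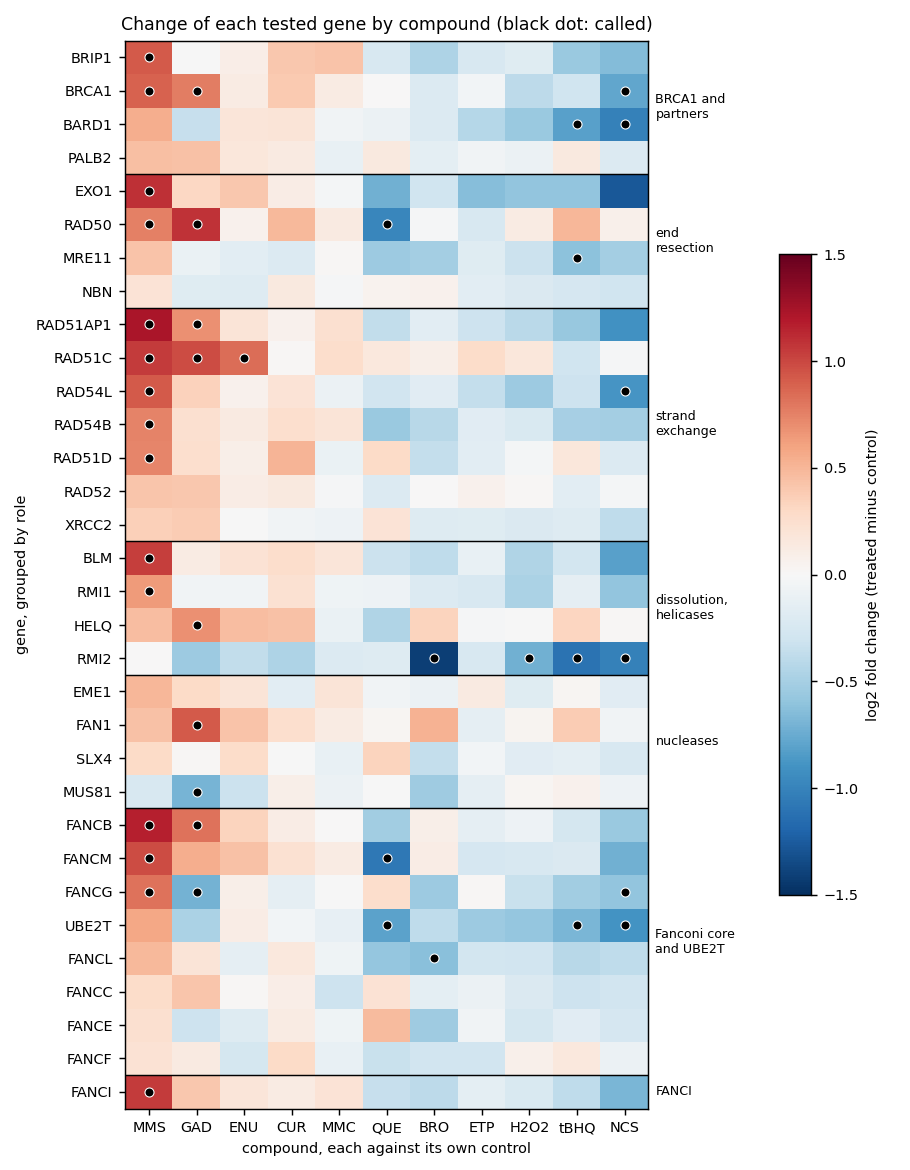
Log2 fold change (treated minus control) of the 32 tested genes, in rows grouped by role, for each of the 11 compounds, in columns; red is higher, blue is lower, and a black dot marks a called gene. MMS has 15 called genes, all higher, GAD has 7 higher and 2 lower, and NCS has 6, all lower.

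MMS, a methylating agent, gave the most calls. In it 15 of 32 genes were called higher and none lower, where 4.46% of all tested genes were called higher and 6.56% lower. The members' median change was 0.56 and that of all tested genes 0.06. Of the 32 changes 31 were above 0, as were 6721 of the 11496 over all tested genes. In 18 of the 32 genes every MMS sample was above every control sample, as in 1278 of the 11496. MMS_CTL replicate 3 had the lowest control mean over the 32 genes, at 6.09 where the others lay between 6.46 and 6.85, and without it 13 of the same genes were called, with RMI1 and RAD51D no longer past 1.5-fold (0.64 became 0.53, and 0.74 became 0.55).

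GAD had calls in both directions. Of 32, 7 were called higher and 2 lower, against 11.1% of all tested genes called higher and 15% lower. The share called lower was smaller than that of all tested genes. The members' median was 0.27 and that of all tested genes 0.03. ENU, an ethylating agent, had 1 call, RAD51C higher, where 4.76% of all genes were called higher and 6.11% lower.

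In NCS, a compound that breaks both DNA strands, 6 genes were called lower and none higher, where 0.966% of all tested genes were called lower and 1.48% higher. The median of the 32 genes was -0.45 and that of all tested genes 0.02. Of the 32 changes 30 were below 0, as were 5198 of the 11496 over all tested genes. The replicate numbers paired NCS with its controls (r of same-numbered deviations from 0.414 to 0.826). With the replicate number as a block, 13 genes were called lower and none higher, including the same 6, where 1.8% of all genes were called lower and 1.92% higher. The added 7 were EXO1, RAD51AP1, BLM, FANCM, FANCI, BRIP1 and RMI1, at -1.27 to -0.59. Single libraries moved the count without the block. Without NCS replicate 1 it was 14, and without NCS replicate 4, NCS replicate 5 or DMSO_pooled replicate 4 it was 3.

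tBHQ, a phenolic electrophile, had 4 genes called lower and none higher, where 4.44% of all genes were called lower and 5.39% higher. Its median over the 32 genes was -0.27, and without tBHQ replicate 1 the count was 8, all lower. H2O2 had 1 gene called lower, RMI2, where 0.165% of all genes were called lower and 0.765% higher. BRO had 2 genes called lower, RMI2 and FANCL, where 4.93% of all genes were called lower and 2.46% higher. That BRO count was 1 without BRO replicate 3, BRO replicate 5 or BRO_DMSO replicate 4, which removed FANCL, and 5 without BRO replicate 4 (4 lower, 1 higher).

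QUE, a flavonoid, had 3 genes called lower and none higher with all libraries as labelled, where 6.65% of all genes were called lower and 6.38% higher. Without the library labelled QUE replicate 2, RAD50 and FANCM were called lower and FANCE higher, where 9.73% of all genes were called lower and 9.16% higher. The members' median then moved from -0.20 to 0.00, and the number of changes below 0 from 21 to 16 of 32. Over all 11496 genes that number was 5806 with the library and 5781 without it. The library labelled QUE replicate 3 had a mean of 6.43 over the 32 genes, where QUE replicates 1, 4, 5 and 6 had 7.08 to 7.44. Without QUE replicates 2 and 3 together, 3 genes were called lower (RAD50, FANCM, HELQ) and 2 higher (FANCE, FANCG), with a median of 0.22, where 8.92% of all genes were called lower and 9.19% higher. Without QUE replicate 1, 5 were called, all lower, where 6.21% of all genes were called lower and 5.8% higher. Without QUE replicate 5, 5 were also called lower, where 5.92% of all genes were called lower and 5.99% higher.

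No gene was called in MMC, CUR or ETP by limma. MMC, a crosslinking agent, had 3 genes at an unadjusted p under 0.05 (1 lower, 2 higher), a median of -0.03 and changes between -0.31 and 0.43, where 0% of all genes were called lower and 0.165% higher. CUR had 7 such genes (2 lower, 5 higher) and a median of 0.14, where 0.931% of all genes were called lower and 1.27% higher. ETP, a topoisomerase poison, had 4 such genes (3 lower, 1 higher) and a median of -0.16, where 0.618% of all genes were called lower and 2.06% higher. Leaving out ETP replicate 1 or ETP_DMSO replicate 2 gave 1 call, lower, each time. Without the library labelled ETP replicate 2 the ETP count stayed at 0, with a median of -0.19, where 1.3% of all genes were called lower and 2.66% higher.

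BRCA1 was called higher in MMS and GAD and lower in NCS. BRCA1 forms a ubiquitin ligase with BARD1 and promotes end trimming and recombinase loading, PALB2 bridges it to the recombinase loader, and BRIP1 is a helicase that binds it. Of 4 tested genes, 2 were called higher in MMS (BRCA1, BRIP1), 1 higher in GAD (BRCA1), 2 lower in NCS (BRCA1, BARD1) and 1 lower in tBHQ (BARD1). The matching shares of all genes were 4.46%, 11.1%, 0.966% and 4.44%. PALB2 was called in no compound, with changes from -0.20 in NCS to 0.45 in MMS.

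BRCA1 ran from 7.77 to 8.06 (median 7.88) in the 6 MMS samples and from 6.41 to 7.46 (median 7.06) in MMS_CTL, so the groups did not overlap. The log2 fold change was 0.88 ± 0.16 (SE, adjusted p = 0.000976). In GAD it ran from 7.72 to 8.06 (median 7.95), above all 6 samples of DMSO_pooled at 6.81 to 7.67 (median 7.02), with a change of 0.77 ± 0.14 (SE, adjusted p = 0.000267). In NCS it ran from 5.90 to 7.08 (median 6.12), and the groups overlapped. That change was -0.78 ± 0.22 (SE, adjusted p = 0.0442) and the call was lost in 9 of 12 fits that left out 1 library (all but those without NCS replicate 1, NCS replicate 2 and DMSO_pooled replicate 6), with adjusted p up to 0.0965, while with the block it was -0.78 ± 0.07 (SE, adjusted p = 0.000409). A second, dimmer BRCA1 probe set moved by 0.74 in MMS, 0.71 in GAD and -0.83 in NCS.

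In the other 8 compounds BRCA1 overlapped its control. BRCA1 was at 6.88 to 7.70 (median 7.23) in MMC, 6.32 to 7.45 (median 6.41) in H2O2, 6.95 to 7.64 (median 7.16) in ENU and 6.44 to 7.57 (median 6.67) in tBHQ. It was at 5.42 to 6.92 (median 6.08) in BRO against 5.76 to 6.93 (median 6.26) in BRO_DMSO. CUR gave 6.05 to 7.64 (median 7.26) against 5.81 to 7.15 (median 6.80) in CUR_DMSO. ETP gave 6.80 to 7.88 (median 7.17) against 6.65 to 7.76 (median 7.57) and QUE 6.08 to 8.35 (median 7.87) against 7.14 to 7.82 (median 7.65), the lowest QUE value being that of the library labelled QUE replicate 2. None of these 8 changes was called, and they lay between -0.39 in H2O2 and 0.40 in CUR.

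BARD1 ran from 5.78 to 7.20 (median 6.31) in NCS and 7.12 to 7.70 (median 7.34) in DMSO_pooled, with a change of -1.02 ± 0.19 (SE, adjusted p = 0.00748). In tBHQ it ran from 5.83 to 7.23 (median 6.61), with a change of -0.81 ± 0.20 (SE, adjusted p = 0.00721). In both compounds the highest treated sample lay above the lowest control. BRIP1 ran from 7.28 to 7.72 (median 7.52) in MMS, above all MMS_CTL samples at 5.63 to 7.13 (median 6.62), and its change was 0.92 ± 0.19 (SE, adjusted p = 0.00266).

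Promoter sequences of these genes were read from RefSeq windows of 300 bases (250 before to 50 after a start site, GRCh38.p14). Windows were found for 28 of the 32 tested genes, 38 in all. Letters were searched on both strands for E2F sites (TTTCCCGC, TTTGGCGC, TTTCGCGC or TTTGCCGC), cell cycle CHR elements (TTTGAA or TTCGAA) and CCAAT boxes (CCAAT). An E2F site was in 4 of the 38 windows (10.5%, those of EXO1, FANCC, RMI1 and XRCC2) and in 3.31% of all 35116 windows. A CHR element was in 5 (13.2%, against 16.4% of all windows) and a CCAAT box in 15 (39.5%, against 34.6%). Of the 19 windows of genes called higher in MMS, 2 held an E2F site, 1 a CHR element and 8 at least 1 CCAAT box. Among the 19 windows of the other tested genes, 2, 4 and 7 did. The windows of UBE2T and BRCA1 are shown since both genes were called in 3 compounds and hold matches, and that of RAD50 since RAD50 was called in both directions. Capitals mark a match.
UBE2T (chr1:202341887-202342186, minus strand): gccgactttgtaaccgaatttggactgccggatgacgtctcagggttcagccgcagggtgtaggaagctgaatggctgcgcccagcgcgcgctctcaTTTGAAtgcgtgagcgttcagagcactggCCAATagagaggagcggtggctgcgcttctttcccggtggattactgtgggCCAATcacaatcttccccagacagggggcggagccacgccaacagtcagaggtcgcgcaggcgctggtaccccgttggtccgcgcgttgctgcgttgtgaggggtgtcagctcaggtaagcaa
BRCA1 (chr17:43125315-43125614, minus strand): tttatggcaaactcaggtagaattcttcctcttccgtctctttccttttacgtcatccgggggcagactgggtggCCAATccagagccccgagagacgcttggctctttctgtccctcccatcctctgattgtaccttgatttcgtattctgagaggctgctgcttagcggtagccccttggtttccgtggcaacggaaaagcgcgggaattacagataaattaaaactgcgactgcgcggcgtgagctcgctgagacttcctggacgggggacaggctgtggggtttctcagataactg
RAD50 (chr5:132556727-132557026, plus strand): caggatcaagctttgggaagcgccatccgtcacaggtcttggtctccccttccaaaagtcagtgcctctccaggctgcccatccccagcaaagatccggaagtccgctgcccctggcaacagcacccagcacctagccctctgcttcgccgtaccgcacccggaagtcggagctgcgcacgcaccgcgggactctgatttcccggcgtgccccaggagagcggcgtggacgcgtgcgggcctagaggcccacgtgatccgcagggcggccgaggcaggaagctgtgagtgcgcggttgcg
UBE2T held a CHR element that began 153 bases before the start site and CCAAT boxes that began 124 and 73 bases before it. BRCA1 held 1 CCAAT box that began 175 bases before the start site, and a second BRCA1 window further upstream held no match. RAD50, like RAD51C and FANCG, held none of the letters searched. A match is a description of the sequence and no measure of binding.

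Among the end resection genes RAD50 was called in both directions. MRE11, RAD50 and NBN form the complex that holds and first cuts break ends, and EXO1 is the exonuclease that lengthens the cut. RAD50 was called higher in GAD and MMS and lower in QUE, EXO1 higher in MMS, MRE11 lower in tBHQ, and NBN in no compound, with changes from -0.29 in NCS to 0.21 in MMS. Of all tested genes 11.1% were called higher in GAD and 4.46% in MMS, and 6.65% were called lower in QUE and 4.44% in tBHQ.

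RAD50 in GAD ran from 8.78 to 9.17 (median 8.98), above all DMSO_pooled samples at 7.68 to 8.16 (median 7.86), with a change of 1.09 ± 0.09 (SE, adjusted p = 4.07e-07). It was the largest change among the tested members in that compound. In MMS it ran from 8.03 to 8.41 (median 8.17) against 7.31 to 7.68 (median 7.43) in MMS_CTL, again apart, with a change of 0.75 ± 0.09 (SE, adjusted p = 3.56e-05). In QUE with all libraries it ran from 6.61 to 8.41 (median 7.07) against 7.96 to 8.45 (median 8.24) in QUE_DMSO, with a change of -0.98 ± 0.24 (SE, adjusted p = 0.0104), and the highest value, 8.41, was that of the library labelled QUE replicate 2. Without that library the 5 QUE samples were at 7.05, 6.61, 6.95, 7.30 and 7.09, all below every control, and the change was -1.22 ± 0.13 (SE, adjusted p = 2e-05). The library labelled ETP replicate 2 was at 6.59, where the other 5 ETP samples lay between 8.12 and 8.41 and ETP_DMSO between 8.07 and 8.35. A second RAD50 probe set moved by 0.96 in GAD, 0.48 in MMS and -0.87 in QUE.

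In CUR and tBHQ every RAD50 value lay above every control without a call. CUR gave 7.48 to 7.88 (median 7.64) against 6.70 to 7.36 (median 7.29) in CUR_DMSO, a change of 0.49 ± 0.12 (SE, adjusted p = 0.0341) that was under 1.5-fold. tBHQ gave 8.24 to 8.56 (median 8.32), a change of 0.50 ± 0.09 (SE, adjusted p = 0.000999), while the second probe set moved by -0.08. MMC gave 7.96 to 8.10 (median 8.02), NCS 7.79 to 8.20 (median 7.95), H2O2 7.68 to 8.34 (median 8.08) and ENU 7.63 to 8.16 (median 8.04), all overlapping DMSO_pooled. BRO gave 7.09 to 7.47 (median 7.35) against 7.14 to 7.51 (median 7.32) in BRO_DMSO. These 5 changes lay between -0.01 and 0.14.

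EXO1 ran from 7.75 to 7.97 (median 7.79) in MMS against 6.37 to 7.33 (median 6.62) in MMS_CTL, with a change of 1.09 ± 0.14 (SE, adjusted p = 8.26e-05). In NCS its change was -1.27 ± 0.40 (SE, adjusted p = 0.0701), uncalled without the block, with samples from 5.28 to 7.60 (median 5.55) against 6.87 to 8.06 (median 7.16). The groups overlapped, and the block gave -1.27 ± 0.17 (SE, adjusted p = 0.00117). MRE11 was below every control in NCS, BRO, QUE and tBHQ, with a call in tBHQ. It ran there from 7.74 to 8.23 (median 7.84) against 8.43 to 8.63 (median 8.49), with a change of -0.61 ± 0.08 (SE, adjusted p = 9.64e-05). That call was lost without tBHQ replicate 3, at -0.58, and with the mean of all its probe sets, at -0.31.

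Strand exchange genes had 8 of the 23 higher calls. RAD51C, RAD51D and XRCC2 are recombinase paralogs that help the filament form, RAD51AP1 aids pairing with the partner strand, RAD54L and RAD54B are motor proteins of strand exchange, and RAD52 anneals single strands. Of 7 tested, 5 were called higher in MMS (RAD51AP1, RAD51C, RAD54L, RAD54B, RAD51D), 2 in GAD (RAD51C, RAD51AP1) and 1 in ENU (RAD51C). Of all tested genes 4.46%, 11.1% and 4.76% were called higher there. RAD54L was called lower in NCS, where 0.966% of all genes were. XRCC2 and RAD52 were called in no compound, with changes from -0.38 to 0.38 and from -0.21 to 0.41.

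RAD51AP1 ran from 9.18 to 9.27 (median 9.20) in MMS against 7.46 to 8.42 (median 7.95) in MMS_CTL. Its change, 1.23 ± 0.14 (SE, adjusted p = 3.22e-05), was the largest of the 32 genes in MMS. In GAD it ran from 8.99 to 9.83 (median 9.45) and overlapped DMSO_pooled at 8.37 to 9.28 (median 8.56), with a change of 0.69 ± 0.19 (SE, adjusted p = 0.00561). In NCS it was at -0.91 without a call and at -0.91 ± 0.11 (SE, adjusted p = 0.00088) with the block.

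RAD51C was called higher in 3 compounds and lower in none. In MMS it ran from 8.41 to 8.87 (median 8.61) against 7.03 to 8.0 (median 7.57), with a change of 1.05 ± 0.15 (SE, adjusted p = 0.000189). In GAD it ran from 9.13 to 9.46 (median 9.30) against 7.95 to 8.93 (median 8.13) in DMSO_pooled, with a change of 0.98 ± 0.16 (SE, adjusted p = 0.000152). ENU samples ran from 8.79 to 9.46 (median 9.20), and the lowest ENU sample was under the highest control. The ENU change was 0.84 ± 0.18 (SE, adjusted p = 0.00281). A second RAD51C probe set of similar brightness moved by 0.53 in MMS, 0.28 in GAD and 0.83 in ENU, so of these 3 compounds the probe sets differed most in GAD.

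RAD51C overlapped its control in the other 8 compounds. It was at 8.28 to 8.93 (median 8.47) in MMC, 7.95 to 8.79 (median 8.24) in NCS, 8.12 to 8.93 (median 8.35) in H2O2 and 7.69 to 8.65 (median 7.82) in tBHQ. BRO gave 7.32 to 7.93 (median 7.62) against 7.19 to 7.87 (median 7.44), and CUR gave 7.30 to 8.30 (median 8.06) against 7.12 to 8.33 (median 8.07). ETP gave 8.59 to 9.03 (median 8.88) against 8.21 to 8.91 (median 8.52), and QUE gave 8.19 to 9.23 (median 8.78) against 8.25 to 9.04 (median 8.59). These changes lay between -0.30 in tBHQ and 0.27 in ETP.

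RAD54L ran from 5.21 to 6.60 (median 5.92) in NCS against 6.48 to 7.18 (median 6.78) in DMSO_pooled, with a change of -0.88 ± 0.21 (SE, adjusted p = 0.0232) that was not called without NCS replicate 4, NCS replicate 5 or DMSO_pooled replicate 4. In MMS its change was 0.92 ± 0.20 (SE, adjusted p = 0.00333), and those of RAD54B and RAD51D were 0.74 and 0.74. With the mean of all its probe sets RAD51D was at 0.56, below 1.5-fold. RAD54L and RAD51D did not overlap MMS_CTL, and RAD54B did.

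RMI2 was called lower in 4 compounds, more than any other of the 32 genes. BLM is the helicase that, with a topoisomerase, RMI1 and RMI2, dissolves joined chromosomes without crossing over, and HELQ is a helicase of crosslink repair. RMI2 was called lower in BRO and, against the same DMSO_pooled samples, in tBHQ, NCS and H2O2, and higher in none. Its partners BLM and RMI1 were called higher in MMS, where RMI2 had a change of 0.01 ± 0.08 (SE, adjusted p = 0.946), and in no other compound without the block. Of all tested genes 4.93% were called lower in BRO, 4.44% in tBHQ, 0.966% in NCS and 0.165% in H2O2, and 4.46% were called higher in MMS.

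RMI2 in BRO ran from 5.05 to 6.08 (median 5.54) against 6.73 to 7.37 (median 7.05) in BRO_DMSO, with a change of -1.41 ± 0.17 (SE, adjusted p = 8.35e-05), or 2.66 times lower. In tBHQ it ran from 6.57 to 7.06 (median 7.01) against 7.70 to 8.18 (median 8.01) in DMSO_pooled, with a change of -1.10 ± 0.11 (SE, adjusted p = 1.38e-05). NCS samples ran from 6.37 to 7.34 (median 7.03), with a change of -1.01 ± 0.14 (SE, adjusted p = 0.00159). In each of these 3 compounds every treated sample was below every control. The 5 H2O2 samples were at 7.49, 7.37, 6.97, 7.24 and 7.31, also below every DMSO_pooled sample, with a change of -0.72 ± 0.11 (SE, adjusted p = 0.0104). These 4 calls held in all 19 or 20 alternatives run for each, with changes from -1.505 to -0.64.

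In GAD the RMI2 change was under 1.5-fold. Its samples ran from 6.97 to 7.70 (median 7.52), under every control, with a change of -0.55 ± 0.12 (SE, adjusted p = 0.00168). ENU gave 7.40 to 7.81 (median 7.62) and a change of -0.37 ± 0.10 (SE, adjusted p = 0.0102), and the 5 MMC samples were at 7.70, 7.71, 7.76, 7.98 and 7.77. CUR gave 6.58 to 7.25 (median 6.86) against 6.98 to 7.65 (median 7.30) in CUR_DMSO, and MMS gave 7.25 to 7.64 (median 7.43) against 7.29 to 7.59 (median 7.43) in MMS_CTL. Both overlapped their controls. ETP gave 7.57 to 8.73 (median 7.67) against 7.85 to 8.40 (median 8.05), with the library labelled replicate 2 highest at 8.73. Without that library the change in ETP was -0.42 ± 0.10 (SE, adjusted p = 0.0164), still under 1.5-fold. QUE gave 6.76 to 8.40 (median 8.26) against 8.09 to 8.36 (median 8.15), with the library labelled replicate 2 lowest at 6.76, and without it the change was 0.06.

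**Figure D2:**
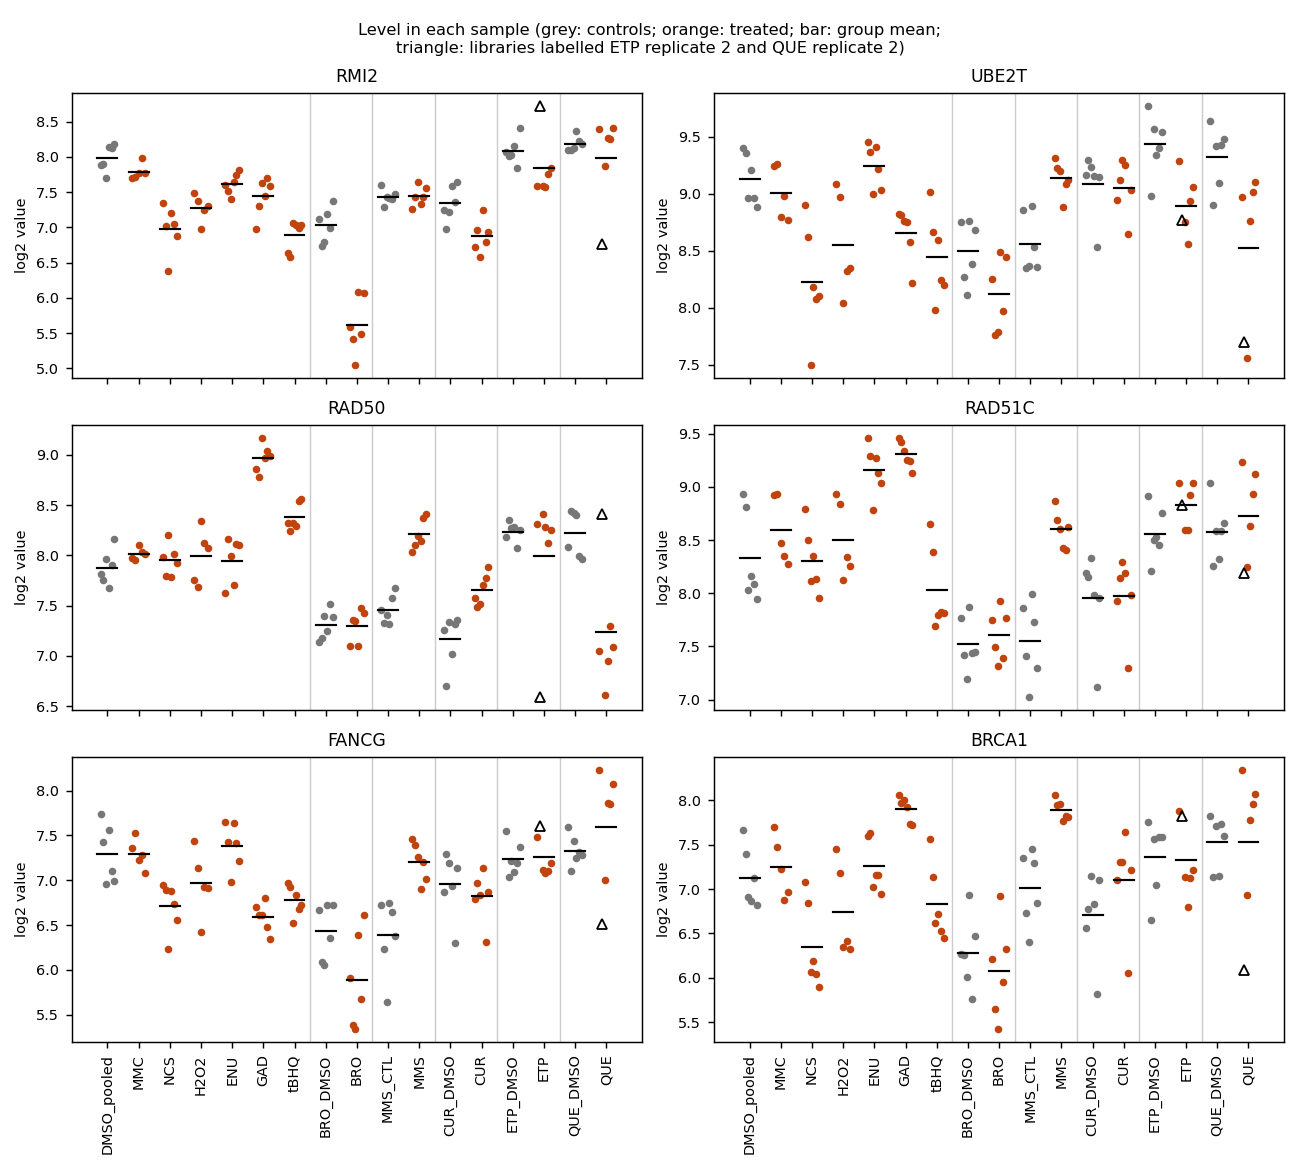
Log2 level of RMI2, UBE2T, RAD50, RAD51C, FANCG and BRCA1 in each sample (points) of the 17 groups, with a bar at each group mean and grey lines between sets that are not compared; grey points are controls, orange points treated samples and open triangles the libraries labelled QUE replicate 2 and ETP replicate 2. RMI2 lies below its controls in BRO, tBHQ, NCS and H2O2, and in the RAD50 panel the triangles at 6.59 and 8.41 lie apart from their own groups.

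BLM ran from 6.80 to 7.14 (median 6.85) in MMS against 5.17 to 6.36 (median 5.91) in MMS_CTL, with a change of 1.03 ± 0.19 (SE, adjusted p = 0.000941). RMI1 changed by 0.64 ± 0.15 (SE, adjusted p = 0.00551) there. In NCS, BLM and RMI1 were at -0.82 and -0.59 without a call, and both were called lower with the block. HELQ was called only in GAD with all libraries, and in QUE at -0.62 without QUE replicates 2 and 3. In GAD it ran from 7.09 to 7.38 (median 7.28) against 6.31 to 6.74 (median 6.59) and changed by 0.68 ± 0.09 (SE, adjusted p = 1.61e-05). Whether that differs from other compounds was tested only against ENU, where the difference was 0.22 ± 0.11 (SE, adjusted p = 0.0944).

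Of 4 tested nuclease genes, 1 was called higher and 1 lower in GAD. SLX4 is a scaffold for nucleases, MUS81 with EME1 cuts branched DNA, and FAN1 trims DNA at crosslinks. FAN1 was called higher and MUS81 lower in GAD, and no nuclease was called in any other compound. Of all tested genes 11.1% were called higher and 15% lower in GAD. FAN1 ran from 6.64 to 7.24 (median 6.99) in GAD against 5.99 to 6.19 (median 6.05) in DMSO_pooled, with a change of 0.92 ± 0.09 (SE, adjusted p = 2.39e-06), while a second probe set moved by 0.54. With the mean of all its probe sets the FAN1 change was 0.56, below 1.5-fold. MUS81 ran from 6.02 to 6.55 (median 6.25) against 6.76 to 7.14 (median 6.97), with a change of -0.70 ± 0.10 (SE, adjusted p = 2.95e-05). Both genes were apart from their controls, as were 2385 of the 11496 tested genes above and 2116 below in GAD. MUS81 was also the 1 tested member below 0 in MMS, at -0.24 (adjusted p = 0.118). With each array set to the same median in its set, MUS81 in GAD was at -0.58, below 1.5-fold, and with the mean of all its probe sets at -0.39. SLX4 and EME1 were called in no compound, with changes from -0.35 to 0.34 and from -0.18 to 0.50.

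The Fanconi core complex genes were called in both directions. FANCB, FANCG and FANCL belong to the ligase complex, with FANCL its ligase subunit, FANCC, FANCE and FANCF to the same complex, FANCM brings it to DNA, and UBE2T is its conjugating enzyme. Of 8 tested, 3 were called higher in MMS (FANCB, FANCM, FANCG) and 1 higher and 1 lower in GAD (FANCB, FANCG). Lower calls were 2 in NCS (UBE2T, FANCG), 1 in tBHQ (UBE2T), 1 in BRO (FANCL) and 2 in QUE (FANCM, UBE2T). Of all genes, 4.46% were called higher in MMS, and 11.1% higher and 15% lower in GAD. The shares called lower were 0.966% in NCS, 4.44% in tBHQ, 4.93% in BRO and 6.65% in QUE. FANCC, FANCE and FANCF were called in no compound with all libraries, with changes between -0.53 and 0.47.

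UBE2T was called lower in 3 compounds and higher in none. NCS samples ran from 7.50 to 8.90 (median 8.14) against 8.88 to 9.40 (median 9.09) in DMSO_pooled, with a change of -0.90 ± 0.20 (SE, adjusted p = 0.0161). tBHQ samples ran from 7.98 to 9.01 (median 8.41), with a change of -0.68 ± 0.16 (SE, adjusted p = 0.00624). QUE samples ran from 7.56 to 9.11 (median 8.87) against 8.90 to 9.63 (median 9.42), with a change of -0.80 ± 0.27 (SE, adjusted p = 0.0388). In all 3 the highest treated sample lay above the lowest control. The QUE call was lost in 8 fits that left out 1 library each (QUE replicates 2, 3 and 4, and QUE_DMSO replicates 1, 3, 4, 5 and 6), with adjusted p up to 0.0743, and without the library labelled QUE replicate 2 it was -0.64 ± 0.25 (SE, adjusted p = 0.0511).

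In MMS, UBE2T ran from 8.89 to 9.32 (median 9.16) against 8.35 to 8.89 (median 8.45), and its change of 0.58 ± 0.11 (SE, adjusted p = 0.00182) was just under 1.5-fold. FANCG in NCS, at -0.59, was the called value nearest to that limit. GAD gave UBE2T at 8.21 to 8.83 (median 8.76), below every control, with a change of -0.47 ± 0.12 (SE, adjusted p = 0.00439). H2O2 gave 8.04 to 9.09 (median 8.35), MMC 8.77 to 9.26 (median 8.98) and ENU 9.0 to 9.45 (median 9.29). These 3 groups overlapped DMSO_pooled. BRO gave 7.76 to 8.49 (median 8.11) against 8.11 to 8.76 (median 8.53), CUR 8.64 to 9.29 (median 9.07) against 8.53 to 9.29 (median 9.16), and ETP 8.56 to 9.29 (median 8.85) against 8.98 to 9.77 (median 9.47). ETP had an adjusted p of 0.0468 at a change of -0.54, under 1.5-fold.

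FANCG was called in both directions. MMS samples ran from 6.91 to 7.46 (median 7.24) against 5.64 to 6.75 (median 6.51), a change of 0.81 ± 0.17 (SE, adjusted p = 0.00302). GAD samples ran from 6.35 to 6.80 (median 6.61) against 6.96 to 7.73 (median 7.27) in DMSO_pooled, a change of -0.70 ± 0.13 (SE, adjusted p = 0.000486), and NCS samples from 6.23 to 6.94 (median 6.81), a change of -0.59 ± 0.16 (SE, adjusted p = 0.0378). In all 3 the treated and control samples did not overlap. The NCS call was lost in 8 of 12 fits without 1 library (NCS replicates 3 to 6 and DMSO_pooled replicates 1, 2, 4 and 5), with adjusted p up to 0.0886. The GAD value was -0.58, below 1.5-fold, with each array at the same median.

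FANCG in tBHQ ran from 6.52 to 6.97 (median 6.78), with a change of -0.52 (adjusted p = 0.011), under 1.5-fold. It was at 7.09 to 7.53 (median 7.29) in MMC, 6.42 to 7.44 (median 6.92) in H2O2 and 6.98 to 7.65 (median 7.42) in ENU, within reach of DMSO_pooled. BRO gave 5.35 to 6.62 (median 5.79) against 6.05 to 6.73 (median 6.51), and CUR gave 6.31 to 7.14 (median 6.86) against 6.30 to 7.30 (median 7.04). ETP gave 7.08 to 7.61 (median 7.15) against 7.04 to 7.55 (median 7.20), and QUE gave 6.52 to 8.23 (median 7.86) against 7.10 to 7.60 (median 7.30). The QUE samples spread on both sides of their controls, and without the library labelled replicate 2 the change was 0.48 (adjusted p = 0.0493).

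FANCB ran from 5.93 to 6.29 (median 6.12) in MMS against 4.49 to 5.35 (median 4.99), with a change of 1.17 ± 0.12 (SE, adjusted p = 1.54e-05), and its GAD change was 0.81 ± 0.19 (SE, adjusted p = 0.00213). FANCM was at 0.98 ± 0.19 (SE, adjusted p = 0.00193) in MMS. In QUE it ran from 4.27 to 5.77 (median 5.25), below every control at 6.02 to 6.81 (median 6.20), with a change of -1.07 ± 0.22 (SE, adjusted p = 0.00507), and without the library labelled replicate 2 of -1.07 ± 0.24 (SE, adjusted p = 0.00279). A second FANCM probe set moved by -0.53 in QUE, and with the mean of all its probe sets, at -0.51, the QUE call was lost. FANCE was at 0.47 (adjusted p = 0.157) in QUE with all libraries and at 0.73 ± 0.12 (SE, adjusted p = 0.000309) without that library. The 5 remaining samples then ran from 5.34 to 5.88, above every control at 4.66 to 5.26. FANCL in BRO was at -0.63 ± 0.16 (SE, adjusted p = 0.0107), with overlapping groups, and at -0.53 without a call with each array at the same median.

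FANCI, 1 of a pair of proteins that the core complex marks with ubiquitin, was called higher in MMS and, without the block and with all libraries, in no other compound. It ran from 8.48 to 9.03 (median 8.71) in MMS against 7.15 to 8.30 (median 7.64) in MMS_CTL, with a change of 1.04 ± 0.16 (SE, adjusted p = 0.000367). NCS gave 7.14 to 8.82 (median 8.03) and a change of -0.69 ± 0.26 (SE, adjusted p = 0.126) without the block. It was called lower there with the block, at -0.69 ± 0.11 (SE, adjusted p = 0.00195), and without NCS replicate 1, at -0.85 ± 0.24 (SE, adjusted p = 0.0351). GAD gave 8.67 to 9.38 (median 9.14) against 8.29 to 9.27 (median 8.60) in DMSO_pooled. These GAD and NCS groups overlapped the control. MMC was at 8.53 to 9.31 (median 8.86), H2O2 at 7.85 to 9.18 (median 8.26), ENU at 8.56 to 9.28 (median 8.81) and tBHQ at 7.84 to 9.04 (median 8.16). BRO gave 6.44 to 7.87 (median 7.09) against 6.94 to 8.01 (median 7.43), and CUR gave 7.82 to 8.64 (median 8.33) against 7.49 to 8.48 (median 8.24). With all libraries and no block the 10 changes other than MMS were uncalled, from -0.69 in NCS to 0.41 in GAD. ETP gave 8.28 to 9.33 (median 8.81) against 8.48 to 9.54 (median 8.93), and QUE gave 6.88 to 9.41 (median 8.92) against 8.46 to 9.40 (median 8.90).

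**Figure D3:**
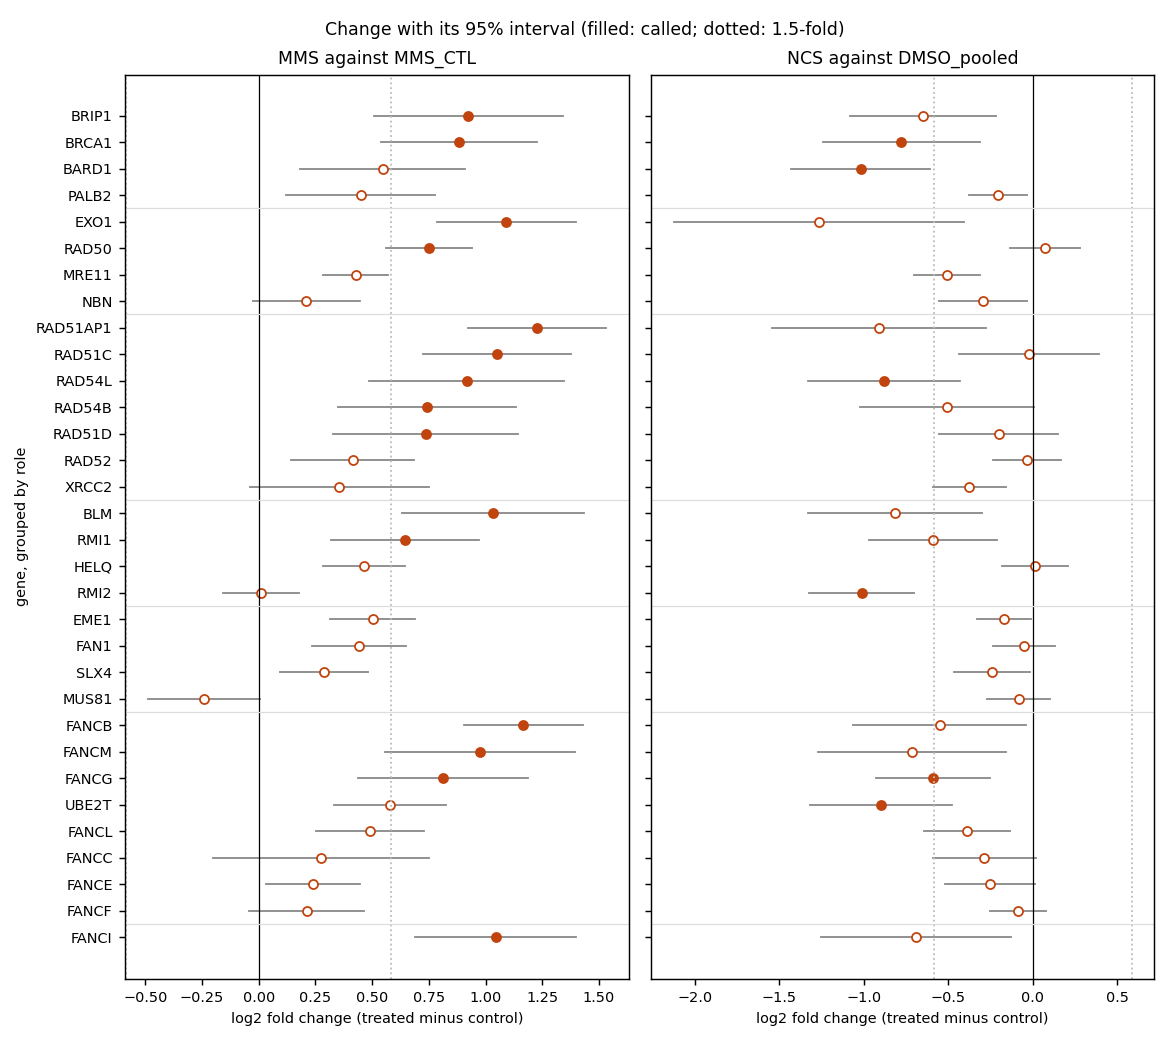
Log2 fold change (points) with its 95% interval (lines) for each tested gene in MMS (left) and NCS (right), each against its own control; filled points are called and dotted lines mark 1.5-fold. In MMS 31 of 32 points lie above 0 and 15 are called, and in NCS 30 of 32 lie below 0 and 6 are called without the block.

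Without the library labelled ETP replicate 2, the ETP changes were -0.14 (adjusted p = 0.73) for BRCA1, 0.28 (adjusted p = 0.205) for RAD51C and 0.04 (adjusted p = 0.762) for RAD50. They were -0.52 (adjusted p = 0.0438) for UBE2T, -0.05 (adjusted p = 0.812) for FANCG and -0.12 (adjusted p = 0.745) for FANCI. None of these was called. Without the library labelled QUE replicate 2, the QUE changes were 0.29 (adjusted p = 0.301) for BRCA1, 0.26 (adjusted p = 0.261) for RAD51C and -0.18 (adjusted p = 0.724) for FANCI, also uncalled.

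Differences between compounds were tested in 1 fit of all 17 groups, for 5 pairs of compounds, without a block for the replicate number. Doses differed within every pair except GAD and ENU, both given at 2 mM. The libraries labelled QUE replicate 2 and ETP replicate 2 were in that fit, so their spread entered the SE of every pair. Fits without them were made only for ETP minus NCS and QUE minus ETP. NCS minus MMC had 3 genes lower and none higher, where 0.331% of all genes were lower and 0.122% higher. They were RAD51AP1, at -1.15 ± 0.29 (SE, adjusted p = 0.0256), RMI2, at -0.81 ± 0.17 (SE, adjusted p = 0.00677), and UBE2T, at -0.78 ± 0.20 (SE, adjusted p = 0.0277). Without NCS replicate 1 the count was 12, without NCS replicate 3 it was 0, and without MMC replicate 1 or 2 or NCS replicate 4, 5 or 6 it was 1. With the replicate number as a block, which pairs the samples of both compounds with the same controls, 12 genes were lower and none higher, including the same 3, where 1.1% of all genes were lower and 0.304% higher. RAD51AP1 then differed by -1.07 ± 0.16 (SE, adjusted p = 3.15e-05), and the added 9 were EXO1, BRIP1, BARD1, BLM, FANCI, BRCA1, FANCM, RAD54L and RAD54B, at -1.12 to -0.67.

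ETP minus NCS had no call by limma and 4 genes at an unadjusted p under 0.05, all higher, where 0% of all genes were lower and 0.0174% higher. The widest of these, RMI2, differed by 0.77 with a 95% interval of 0.32 to 1.23. Without the libraries labelled QUE replicate 2 and ETP replicate 2 it differed by 0.60, with an interval of 0.23 to 0.96. The limma count then stayed at 0, again with 4 genes at an unadjusted p under 0.05, all higher, where 0% of all genes were lower and 0.0261% higher. A missed threshold does not show that the compounds act alike.

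MMS minus ENU, both alkylating agents, had 4 genes higher and none lower, where 3.93% of all genes were higher and 3.89% lower. They were FANCG at 0.72 ± 0.27 (SE, adjusted p = 0.0484), RAD50 at 0.68 ± 0.23 (SE, adjusted p = 0.0277), FANCL at 0.62 and RMI1 at 0.70. RAD51C, called in MMS and in ENU, differed by 0.22 with an interval of -0.29 to 0.72. The count moved with single libraries. It was 7 to 9 without DMSO_pooled replicate 3 or 6 or MMS_CTL replicate 1 or 4, and 1 or 2 without ENU replicate 3, 4, 5 or 6, DMSO_pooled replicate 1 or 2, MMS replicate 2, or MMS_CTL replicate 2, 3 or 6.

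GAD minus ENU had 2 genes higher and 2 lower, where 7.09% of all genes were higher and 12.2% lower. RAD50 was higher by 1.02 ± 0.16 (SE, adjusted p = 8.85e-08) and BRCA1 by 0.65 ± 0.25 (SE, adjusted p = 0.0276). FANCG differed by -0.79 ± 0.19 (SE, adjusted p = 0.000238) and UBE2T by -0.59 ± 0.19 (SE, adjusted p = 0.00671). RAD51C, called in both compounds, differed by 0.14 with an interval of -0.21 to 0.50. The same 4 genes were called with the block, where 7.18% of all genes were higher and 12.3% lower.

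QUE minus ETP, with all libraries as labelled, had 1 gene lower, RAD50, at -0.74 ± 0.23 (SE, adjusted p = 0.0275), where 2.76% of all genes were lower and 2.31% higher. Without the libraries labelled QUE replicate 2 and ETP replicate 2 there were 3 lower (RAD50, FANCM, HELQ) and 4 higher (FANCE, SLX4, RAD51D, XRCC2), where 10.9% of all genes were lower and 9.22% higher. RAD50 then differed by -1.26 ± 0.15 (SE, adjusted p = 1.09e-10) and FANCE by 1.0 ± 0.18 (SE, adjusted p = 6.03e-06). Leaving out 1 library at a time, the count was 3 without ETP replicate 2, 2 without QUE replicate 2, and 0 without ETP replicate 1, 3, 4, 5 or 6 or QUE replicate 1, 3, 4 or 6.

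Lists of cell cycle and other repair genes were set beside these results. The shares of all genes called in each compound are those given above. In MMS 11 of 30 G1/S and replication genes were called higher and none lower, with a median of 0.40, and of 32 G2/M genes 2 were called lower, with a median of -0.01. In NCS 14 of 30 G1/S genes were called lower, with a median of -0.80, and 3 of 32 G2/M genes, with a median of -0.50. With the block these counts were 24 of 30 and 5 of 32, beside 13 of the 32 recombination genes. tBHQ had G1/S and G2/M medians of -0.59 and -0.44, H2O2 of -0.54 and -0.49, and ETP of -0.42 and -0.45. Without the library labelled ETP replicate 2 the ETP medians were -0.56 and -0.10. In GAD 21 of 32 G2/M genes were called lower (median -0.71), with a G1/S median of -0.17 and the recombination genes at 0.27. BRO had 10 of 30 G1/S genes called lower (median -0.27) and a G2/M median of -0.17. In QUE 7 of 30 G1/S genes were called lower and 1 higher (median -0.20), and without the library labelled replicate 2, 5 lower and 2 higher (median 0.04). In QUE 28 of 32 G2/M genes were called lower (median -1.10, and -1.05 without the library labelled replicate 2), while the recombination genes were at -0.20, and 0.00 without it. The part of the cell cycle genes in the changes of the recombination genes was not tested, and in bulk RNA fewer cells in a phase and less transcript per cell cannot be told apart.

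**Figure D4:**
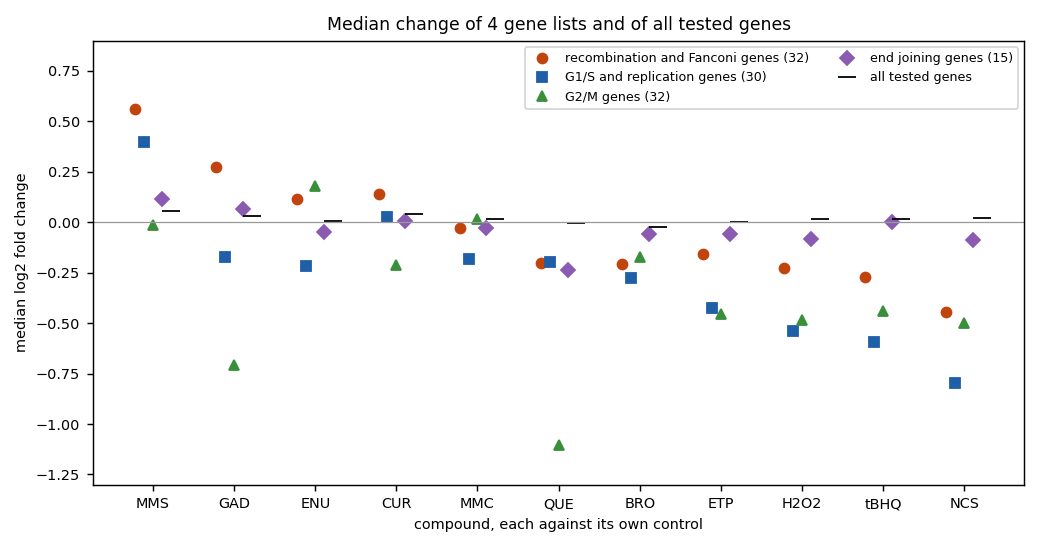
Median log2 fold change of the 32 tested recombination and Fanconi genes (circles), 30 G1/S and replication genes (squares), 32 G2/M genes (triangles), 15 end joining genes (diamonds) and all 11496 tested genes (black bars) in each compound against its control. The recombination genes are highest in MMS, at 0.56, and lowest in NCS, at -0.45, while the end joining genes stay between -0.24 and 0.12.

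End joining genes repair breaks without a template. Of 15 tested, 1 was called higher in GAD, 1 higher in BRO, 1 lower in QUE and none in the other 8 compounds with all libraries. The matching shares of all genes were 11.1%, 2.46% and 6.65%. The end joining medians lay between -0.24 in QUE and 0.12 in MMS. In QUE 8 of the 15 were lower past the adjusted p alone, where 1889 of 11496 genes were, and 4 had every treated sample below every control, as did 552 of all genes. Without the library labelled QUE replicate 2, 2 were called lower, with a median of -0.24, where 9.73% of all genes were called lower.

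Of 48 other genes of recombination and crosslink repair, 47 were tested and 28 were called in no compound, a count not made for all tested genes. MMS had 9 called higher and 1 lower, with a median of 0.30, where 4.46% of all genes were called higher and 6.56% lower. GAD had 5 higher and 3 lower, where 11.1% of all genes were higher and 15% lower. NCS had 3 lower (0.966% of all genes), BRO 3 lower (4.93%), and QUE 4 lower and 1 higher (6.65% and 6.38%). ENU had 1 lower (6.11%), tBHQ 1 higher (5.39%), and MMC, H2O2, CUR and ETP none. Without the libraries labelled QUE replicate 2 and ETP replicate 2, QUE had 3 lower and 4 higher and ETP none. In QUE 9.73% of all genes were then lower and 9.16% higher. SFR1, which aids the recombinase, was called lower in GAD (-1.22), BRO (-0.98) and QUE (-0.62, and -0.67 without the library labelled replicate 2). BABAM2, a subunit of a BRCA1-bound complex, was called lower in GAD (-0.77), ENU (-0.68) and MMS (-0.59). FIGNL1, an ATPase of recombination, was higher in MMS (0.78) and lower in BRO (-0.78), and PSMC3IP, a strand exchange partner, was higher in MMS (0.91) and GAD (0.82). SFR1 and BABAM2 were the 2 genes called in 3 compounds, and FIGNL1 and PSMC3IP are the 2 of 8 genes called in 2 compounds that had the largest mean absolute change, so their values describe and support nothing further.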

How the data were processed

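RNA of HT1080 cells was hybridised to Affymetrix HT HG-U133+ PM arrays. The deposited log2 values (54715 probe sets on 101 arrays) are GCRMA summaries made with Partek, per the submitters' processing notes, without a version. The sets of arrays appear to have been summarised apart, so levels were compared within a set. A repeat array of ETP_DMSO replicate 2 was averaged with it, leaving 100 replicates. The number of arrays limits the precision.

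Probe sets were named by the platform annotation (40920 with 1 gene, 864 with several, which were not used), and each gene took its probe set with the highest mean. Genes with at least 1 of 17 group means at 4 or more were tested (11496 of 19774). Compounds were tested against their controls with limma 3.58.1 (R 4.3.3) with Benjamini-Hochberg adjustment over all tested genes, and called at an adjusted p under 0.05 and at least 1.5-fold. The procedure was tested on simulated data. The genes and lists were chosen with earlier results of these data known. The named genes are, per compound, up to 6 called genes of largest change, first those apart from their controls, and every call against the main direction. All groups are given for the 6 genes called in the most compounds and for BRCA1 and FANCI. Same-numbered samples deviated together (every r above 0.1) in all comparisons but those of MMS and ETP, which gives the pairing, and fits with the replicate block, other filters, other probe set rules, other scalings and each replicate left out were alternatives.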

Additional observations from a re-analysis of the deposited data

Results flagged for a closer look

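In groups of 5 or 6 samples, 8 of 136 groups tested held a sample set apart from the rest of its group, where chance gives about 1 in 20. The library labelled ETP replicate 2 was such a sample for RAD50, at 6.59, and for RMI2, at 8.73. The library labelled QUE replicate 2 was one for RMI2, at 6.76. CUR replicate 5 was low for BRCA1, at 6.05, and for RAD51C, at 7.30. CUR_DMSO replicate 5 was low for RAD51C, at 7.12, and for UBE2T, at 8.53. MMC replicate 4 was high for RMI2, at 7.98.

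Between compounds, the test of the difference itself called 3 genes for NCS minus MMC, 4 for MMS minus ENU, 4 for GAD minus ENU and 1 for QUE minus ETP, by limma with adjusted p under 0.05 and at least 1.5-fold.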

How the results depend on the processing

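Of 41 calls of a gene in a compound, 29 were kept under every alternative run and 12 were lost under at least 1, and no direction was reversed. The NCS count of 6 became 13 with the replicate block, which used the pairing of same-numbered samples, and 10 in 1 fit of all groups, and the block moved the count of no other compound against its control by over 1.5 times. Without the fold minimum the counts were 9 in BRO, 1 in CUR, 7 in ENU, 1 in ETP, 20 in GAD, 25 in MMS, 7 in QUE, 10 in tBHQ, 9 for GAD minus ENU and 2 for QUE minus ETP. The mean of all probe sets gave 2 in ENU. Equal medians gave 1 in ETP, 5 for NCS minus MMC and 9 for MMS minus ENU, quantile normalization 5 for NCS minus MMC and 2 for MMS minus ENU, and no filter on dim genes 1 for MMS minus ENU. For these the cause was not tested. Alternatives chosen after seeing the data gave, with the block, 12 for NCS minus MMC, 13 for MMS minus ENU and 2 for QUE minus ETP. In MMS same-numbered r ran from -0.134 to 0.316, and 0 of 6 samples matched their own-numbered control best. In ETP it ran from -0.00219 to 0.65, and 5 of 6 samples did. Such alternatives also gave 5 in QUE without QUE replicates 2 and 3, with a median of 0.22. For QUE minus ETP they gave 7 without the libraries labelled QUE replicate 2 and ETP replicate 2, and 10 without QUE replicate 3 as well. Leaving out 1 replicate at a time, counts ran from 1 to 5 in BRO, 0 to 1 in ETP, 3 to 14 in NCS, 2 to 5 in QUE, 3 to 8 in tBHQ, 0 to 12 for NCS minus MMC, 1 to 9 for MMS minus ENU and 0 to 3 for QUE minus ETP. Dim probe sets limit RAD52 and XRCC3 most.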
